A study of Mus musculus with 2 samples.

Results

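Transcripts of 5 genes for secreted immune proteins, Ccl3, Ccl4, Il12a, Cxcl10 and Wfdc18, were followed through single mouse multipotent progenitors (MPPs). They are 5 of the 27998 genes in the count matrix and were chosen by earlier measured values of these same cells (UMI level, share of cells and crowding into few cells), so those values and the pairing of the genes are given as descriptions. The study sorted bone-marrow MPPs, the cells just below the haematopoietic stem cell, from which lymphoid and myeloid cells arise, from C57BL/6 Spp1-/- mice and from C57BL/6 wild-type mice, all taken 20 h after an intraperitoneal injection of thioglycollate, a sterile inflammatory stimulus. The sort took Lin-Sca-1+c-kit+CD34+ cells inside a gate written Flt3L+ in the labels, and each genotype gave 1 library of droplet 3′ single-cell RNA. The number of animals in a library is not stated in the labels.

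The pooled matrix holds 2 libraries told apart by the barcode suffix, called library 2 and library 1 here, and nothing in the labels or files ties a suffix to a genotype. Spp1, the deleted gene, had 1 UMI (unique molecular identifier, a count of 1 captured mRNA) in library 2 and 33 UMIs in library 1, and these counts were not used to assign genotypes. Library 2 kept 4570 cells with 18750468 UMIs and a median of 3836 UMIs per cell, and library 1 kept 3253 cells with 10118499 UMIs and a median of 2830. Transcripts of the sort markers were present in both, with Cd34 in 80.4% of cells of library 2 and 67.8% of library 1, Ly6a (Sca-1) in 59.0% and 54.4%, Flt3 in 41.6% and 30.3%, and Kit in 13.6% and 10.1%. A barcode sequence occurred in both libraries 32 times, and leaving those cells out moved none of the levels, shares, pairings or states recomputed beyond counting error. With 1 library per genotype no test between libraries is possible, and all intervals are exact 95% intervals that cover counting error only, not the spread between cells, animals or preparations.

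Ccl3 (MIP-1α) and Ccl4 (MIP-1β) are chemokines, and Ccl3 binds Ccr1; together they draw monocytes, macrophages and lymphocytes to inflamed tissue. Both are classical NF-kB and immediate-response products of macrophages. Cxcl10 is an interferon-induced chemokine for Cxcr3-bearing T cells. Il12a encodes the p35 subunit, which forms interleukin-12 with the p40 subunit (Il12b) and interleukin-35 with Ebi3. Wfdc18 is a small secreted protein with a WAP four-disulfide core, a fold shared with protease inhibitors.

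Ccl3, Ccl4 and Wfdc18 lie in 1 stretch of chromosome 11. In GENCODE M21 (GRCm38), Ccl3 (3 exons, minus strand) spans chr11:83647844-83649355, Ccl4 (3 exons, plus strand) chr11:83662584-83664683 and Wfdc18 (3 exons, plus strand) chr11:83709015-83711348. Ccl3 and Ccl4 are 13.2 kb apart with no annotated gene between them, and Wfdc17, a second WAP gene, ends 2.7 kb before Wfdc18. Il12a (8 exons in its longest coding transcript, plus strand) is at chr3:68690644-68698547 and Cxcl10 (4 exons, minus strand) at chr5:92346638-92348889. None of the 50-base words in the last 300 bases of the transcripts of the 5 genes occurs in another gene of that annotation, so an exact copy elsewhere does not blur their counts.

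The 250 bases before the transcription start are shown for the 4 members that the RefSeq promoter table (GRCm38.p6) holds. A few Cxcl10-positive cells described below stood high in interferon or NF-kB target transcripts, which is why the sequences are shown. Each runs 5′ to 3′ toward the gene. Capitals mark every match, on either strand, to the NF-kB consensus, the interferon-stimulated response element (ISRE, GAAA on either side of any 2 bases), AP-1 (TGANTCA), the TATA box (TATAA), PU.1 (GAGGAA) or RUNX (TGTGGT), a motif choice made with the sequences in view. Il12a has a second listed start, and the first is shown.
Ccl3 (chr11:83649379-83649628, minus strand): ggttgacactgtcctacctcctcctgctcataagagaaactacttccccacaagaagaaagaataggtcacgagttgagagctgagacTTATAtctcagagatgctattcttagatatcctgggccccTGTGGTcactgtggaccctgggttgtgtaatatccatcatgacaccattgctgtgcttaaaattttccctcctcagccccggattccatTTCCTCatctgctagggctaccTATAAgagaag
Wfdc18 (chr11:83708754-83709003, plus strand): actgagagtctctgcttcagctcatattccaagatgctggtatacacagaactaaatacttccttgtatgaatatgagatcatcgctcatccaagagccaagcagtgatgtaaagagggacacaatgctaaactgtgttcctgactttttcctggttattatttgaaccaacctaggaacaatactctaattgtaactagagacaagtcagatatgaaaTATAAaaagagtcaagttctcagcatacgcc
Il12a (chr3:68690394-68690643, plus strand): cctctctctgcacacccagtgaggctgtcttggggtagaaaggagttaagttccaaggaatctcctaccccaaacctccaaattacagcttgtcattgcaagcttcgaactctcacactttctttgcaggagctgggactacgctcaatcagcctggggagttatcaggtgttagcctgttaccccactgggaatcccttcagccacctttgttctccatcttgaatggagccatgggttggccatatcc
Cxcl10 (chr5:92348890-92349139, minus strand): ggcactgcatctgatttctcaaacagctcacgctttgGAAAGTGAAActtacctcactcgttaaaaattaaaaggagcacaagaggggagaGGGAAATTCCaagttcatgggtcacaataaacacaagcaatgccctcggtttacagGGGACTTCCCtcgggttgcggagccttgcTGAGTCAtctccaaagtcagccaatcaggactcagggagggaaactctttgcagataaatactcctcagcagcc
The Cxcl10 sequence holds 2 NF-kB matches, GGGAAATTCC and GGGACTTCCC, 1 ISRE match, GAAAGTGAAA, and 1 AP-1 match, TGAGTCA. Among 32851 mouse promoters of the same length, 3.90% hold an NF-kB match, 2.98% an ISRE match and 6.75% an AP-1 match. The Ccl3 sequence holds TATA matches ending 7 and 158 bases before the start, a PU.1 match and a RUNX match, and Wfdc18 a TATA match ending 27 bases before the start; 22.8% of promoters hold TATA, 23.3% PU.1 and 14% RUNX. The first Il12a window holds none of the 6 motifs. These are letter matches only and say nothing of binding.

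Among the chemokines, Ccl3 was found in few cells and almost always as a single UMI. It had 291 UMIs in library 2 and 209 in library 1, or 15.5 (13.8 to 17.4) and 20.7 (17.9 to 23.7) counts per 1000000 UMIs (CPM). A Ccl3 UMI was seen in 5.45% (4.81 to 6.15) of cells of library 2 and 5.72% (4.94 to 6.57) of library 1. With each cell thinned at random to 2000 UMIs, which leaves 4016 cells in library 2 and 2444 in library 1 and sets aside 554 and 809 that were shallower, the shares were 3.19% (2.67 to 3.78) in library 2 and 3.72% (3.01 to 4.55) in library 1. Of the Ccl3-positive cells, 212 of 249 in library 2 and 168 of 186 in library 1 held 1 UMI, and the highest cell of each library held 4.

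Ccl4 had 411 UMIs in library 2 and 270 in library 1, which is 21.9 (19.9 to 24.1) and 26.7 (23.6 to 30.1) CPM. Its share of cells was 7.33% in library 2 and 7.13% in library 1, or 3.91% (3.33 to 4.56) and 4.46% (3.68 to 5.36) at 2000 UMIs per cell. Most positive cells again held 1 UMI (289 of 335 and 205 of 232), but 1 cell of library 2 held 16 Ccl4 UMIs and another 9, while the highest cell of library 1 held 5.

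Wfdc18 had 291 UMIs in 263 cells of library 2 and 220 UMIs in 191 cells of library 1, which is 15.5 (13.8 to 17.4) and 21.7 (19.0 to 24.8) CPM. Its neighbour Wfdc17 was far more widespread, at 238 CPM in library 2 and 333 CPM in library 1, with a UMI in 46.3% and 45.7% of cells. At 2000 UMIs per cell a Wfdc18 UMI was present in 3.26% (2.73 to 3.86) of cells of library 2 and 3.52% (2.82 to 4.33) of library 1.

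Il12a was the most widely detected of the 5. It had 1689 UMIs in library 2 and 1023 in library 1, which is 90.1 (85.8 to 94.5) and 101.1 (95 to 107.5) CPM. A UMI was present in 28.3% of cells of library 2 and 25.3% of library 1, and at equal depth in 17.0% (15.9 to 18.2) of library 2 and 16.9% (15.5 to 18.5) of library 1. Its usual partner subunit was not seen: Il12b had 0 UMIs in both libraries, which allows a level of up to 0.160 CPM in library 2 and 0.296 CPM in library 1 at 3 counts. Il23a, which encodes the p19 partner of p40, also had 0 UMIs in both. Ebi3, the other known partner of p35, had 20.1 CPM in library 2 and 23.5 CPM in library 1, with a UMI in 3.91% and 4.01% of cells at 2000 UMIs. Il12a and Ebi3 were found in the same cell 28 times in library 2 and 20 times in library 1, which is 1.05 (0.70 to 1.51) and 1.20 (0.74 to 1.86) times the product of their separate shares.

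**Figure D1:**
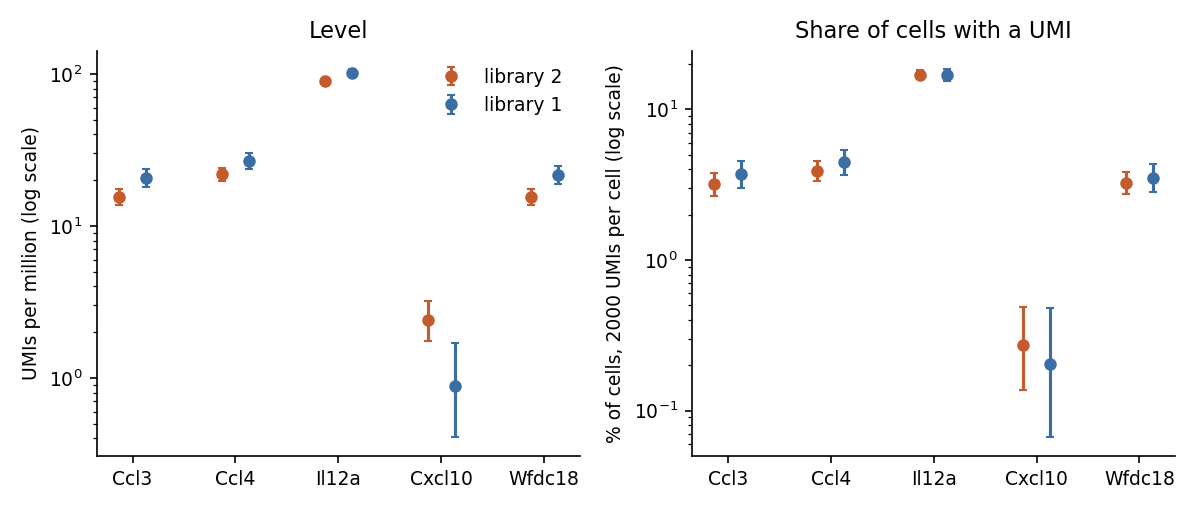
Level (left, UMIs per 1000000, log scale) and share of cells with a UMI after thinning to 2000 UMIs per cell (right, %, log scale) of the 5 genes in library 2 and library 1; bars are exact 95% counting intervals. Il12a stands highest, at 17.0% (library 2) and 16.9% (library 1) of cells, and Cxcl10 lowest, at 0.274% and 0.205%.

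Cxcl10 was rare, with 45 UMIs in 21 cells of library 2 and 9 UMIs in 7 cells of library 1. That is 2.4 (1.75 to 3.21) CPM in library 2 and 0.889 (0.407 to 1.69) CPM in library 1. In library 2, 1 cell held 16 UMIs and another 7, and these 2 cells carried 51.1% of the library's Cxcl10; 17 of the other cells held 1 UMI. The cell with 16 Cxcl10 UMIs also held 26 UMIs of Ccl5, a T-cell and monocyte chemokine, 29 of the ubiquitin-like Isg15, 16 of Ifit1 and 8 of Rsad2, all interferon-induced genes. Its 22-gene interferon response list stood at 140.1 UMIs per 10000, against a library median of 22.1, and 1 cell of the library was higher. That 1 higher cell, at 261.2 per 10000, was itself Cxcl10-positive, with 3 Cxcl10, 16 Ccl4, 13 Ccl5, 18 Ifit1 and 11 Rsad2 UMIs. In library 1 the cell with most Cxcl10, 3 UMIs, had the highest interferon response list of its library, 156.5 per 10000 against a median of 21.8. In library 2 the cell with 7 Cxcl10 UMIs had an interferon level of 18.8 per 10000, below the median. The cell with 2 Cxcl10 UMIs stood at 64.2 per 10000, with 114 cells of the library higher, and had the highest NF-kB list of the library, 60.7 per 10000 against a median of 6.18, with 10 UMIs of the NF-kB inhibitor Nfkbia. On the NF-kB list the cell with 7 Cxcl10 UMIs stood at 18.8 per 10000, with 147 cells of the library higher. The cell with 3 stood at 24.6 and the cell with 16 at 5.96, below the median. Over all Cxcl10-positive cells the median interferon level was 25.6 per 10000 in library 2, against 22.1 in its Cxcl10-negative cells, and 53.4 in library 1, against 21.8 in its negative cells. The median NF-kB level was 7.99 per 10000 in Cxcl10-positive and 6.17 in Cxcl10-negative cells of library 2, and 9.81 and 5.62 in library 1. Macrophage C1qa had 0 UMIs in every Cxcl10-positive cell, and the dendritic-cell gene H2-Aa was found in 1 of them. In the cells of library 2 with 16, 7, 3 and 2 Cxcl10 UMIs, the macrophage gene Lyz2 had 1, 2, 0 and 2 UMIs. The dendritic-cell gene Cd74 had 1, 0, 1 and 5 UMIs in these cells. These genes were not compared with Cxcl10-negative cells, so no cell type is read from them.

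Between the libraries, Ccl3, Ccl4, Il12a and Wfdc18 were each a little lower in library 2 than in library 1, and Cxcl10 higher. The log2 ratio of library 2 over library 1 was -0.41 (-0.67 to -0.15) for Ccl3, -0.28 (-0.51 to -0.06) for Ccl4, -0.17 (-0.28 to -0.05) for Il12a, -0.49 (-0.74 to -0.23) for Wfdc18 and 1.43 (0.38 to 2.65) for Cxcl10. Over the 10099 genes with at least 50 UMIs the median was 0.11. Past 1.5-fold, 1 of the 5 members, Cxcl10, was higher in library 2, where 4.79% of all genes were, and 0 of the 5 were lower, where 2.46% of all genes were, so 1 of 5 passed in either direction against 7.25% of all genes. Depth moves with these values: with only cells of at least 1000 genes the log2 ratio was -0.05 for Ccl3, -0.11 for Wfdc18 and 0.03 for Il12a, the last with its sign turned, and in cells thinned to 2000 UMIs it was -0.04 for Ccl4. Per cell, Ccl3 had 0.0637 UMIs in library 2 and 0.0642 in library 1, and Ccl4 0.0899 and 0.0830. Il12a had 0.370 and 0.314 UMIs per cell, and Wfdc18 0.0637 and 0.0676. The Cxcl10 difference rested on few cells: without the 2 highest cells of each library its log2 ratio was 1.25 (-0.19 to 3.005), and without cells holding 5 or more UMIs of another cell type's markers, which include Ccl5, it was 0.39. The makeup of the libraries moved as well, since all 24 G2 and mitosis genes lay above the all-gene median, with a median log2 ratio of 0.79; its part in the member ratios was not tested.

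The wider families give the setting. Of 35 chemokine ligand genes found in the matrix, 15 had 0 UMIs and 8 had at least 50: Ccl3, Ccl4, Ccl5, Ccl6, Ccl9, Ccl25, Ccl27a and Cxcl10. Of 8 such ligands, 1 passed 1.5-fold higher and 0 lower, where 4.79% of all genes were higher and 2.46% lower, with a median log2 ratio of -0.06. Ccl9, a myeloid chemokine that binds Ccr1, was the most abundant ligand, at 65.0 CPM in library 2 and 63.7 CPM in library 1. Of 56 cytokine genes 21 had 0 UMIs and 16 had at least 50, none past 1.5-fold against 7.25% of all genes in either direction, with a median log2 ratio of -0.08. Il2 appeared among them with 843 UMIs in library 2 and 629 in library 1, but 138 of the 50-base words at its 3′ end also occur in Ntan1, so its counts cannot be assigned to Il2 alone. Tnf, the inflammatory cytokine usually made together with Ccl3 and Ccl4, had 33 UMIs in library 2 and 26 UMIs in library 1, which is 1.76 and 2.57 CPM. Of 36 receptors for chemokines and cytokines, 19 had at least 50 UMIs, 2 past 1.5-fold higher, where 4.79% of all genes were, and 1 lower, where 2.46% were, with a median of 0.18; Ccr1 had 27 UMIs in library 2 and 24 UMIs in library 1.

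How far each transcript was gathered in few cells was read from the variance over the mean of its UMIs per cell at equal depth, where 1 is what independent random capture gives. The median of all genes with at least 50 UMIs was 1.01 in library 2 and 1.03 in library 1. Ccl3 stood at 1.07 in library 2 and 1.21 in library 1, Wfdc18 at 1.11 and 1.20 and Il12a at 1.12 and 1.19. That was above 91.5% of those genes in library 2 and 95.5% in library 1 for Ccl3. For Wfdc18 it was above 95.4% and 94.9%, and for Il12a above 96.3% and 94.5%. The genes were chosen partly by their crowding into few cells, so these ranks are descriptions. Ccl4 stood at 2.401 in library 2 and at 1.12 in library 1, but without the 1 cell with 16 Ccl4 UMIs library 2 was at 1.14. Cxcl10 stood at 2.55 in library 2 and 1.86 in library 1, and without the highest cell of each at 1.61 and 0.999, while the chemokine Ccl5 was at 7.50 and 3.80. The top 1% of cells held 35.6% (library 2) and 35.3% (library 1) of Ccl3 UMIs, 38.3% and 28.8% of Ccl4, 36.2% and 35.1% of Wfdc18, and 12.1% and 12.7% of Il12a. The median over all genes with at least 50 UMIs was 22.2% in library 2 and 19.7% in library 1. Here 1% is 41 cells of library 2 and 25 of library 1, and for a gene seen mostly as single UMIs the share is largely set by how few UMIs there are, 135 in library 2 and 102 in library 1 for Ccl3 at this depth against 793 and 497 for Il12a.

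Ccl3 and Ccl4 were found together more often than their separate shares give. At 2000 UMIs per cell, 15 cells of library 2 held both, against 5.004 expected from the product of the shares, a ratio of 2.998 (1.68 to 4.94), and 14 cells of library 1 held both, against 4.06 expected, a ratio of 3.45 (1.89 to 5.78). Put another way, Ccl4 was present in 11.7% of Ccl3-positive cells and 3.65% of Ccl3-negative cells of library 2, and in 15.4% of Ccl3-positive and 4.04% of Ccl3-negative cells of library 1. Within clusters of like cells the ratios were 2.28 in library 2 and 3.16 in library 1. The size of the ratio moved with depth, at 4.37 in library 2 and 2.04 in library 1 with 1000 UMIs per cell, 1.67 and 2.98 with 3000 UMIs, and 2.14 and 2.71 without thinning. Without thinning 39 cells of library 2 and 36 of library 1 held both, and 14 in each library held Il12a as well. No expected number was computed for the 14. Cells holding both Ccl3 and Ccl4 were shallow, with a median of 2710 UMIs in library 2 and 2235 in library 1. Ccl3-negative cells had medians of 3846 and 2847. The part of this depth difference in the pairing was not tested.

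With Il12a the pairing was weaker. Cells with both Ccl3 and Il12a numbered 27 in library 2 and 19 in library 1, which is 1.24 (0.82 to 1.80) and 1.23 (0.74 to 1.92) times the expected number, and within clusters 1.06 and 1.07. Ccl4 with Il12a gave 1.498 (1.07 to 2.04) in library 2 and 1.46 (0.97 to 2.12) in library 1, and within clusters 1.27 and 1.37. Wfdc18 paired with its neighbour Wfdc17, at 1.59 (1.23 to 2.03) in library 2 and 1.68 (1.25 to 2.21) in library 1, and within clusters at 1.31 and 1.48. For Ccl3 with Wfdc18 the ratios were 1.44 (0.53 to 3.13) in library 2 and 1.87 (0.69 to 4.07) in library 1. In all, 10 member pairs were computed, and those with Cxcl10 had at most 1 cell each.

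**Figure D2:**
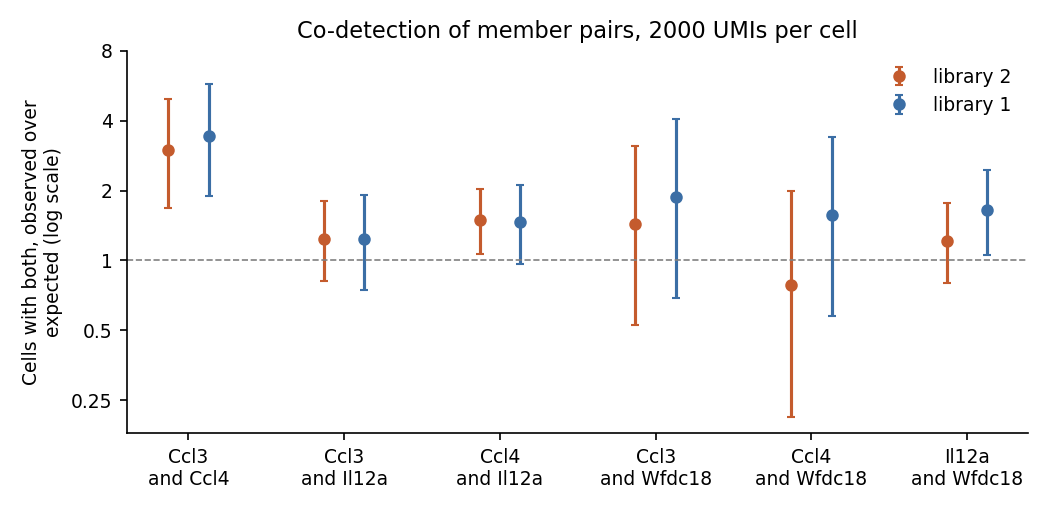
Cells holding both genes of a pair, observed over expected from the separate shares (log scale), at 2000 UMIs per cell, in library 2 and library 1, with exact 95% counting intervals; the dashed line is 1. Ccl3 with Ccl4 stands at 2.998 in library 2 and 3.45 in library 1.

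Cells of both libraries were then clustered without Wfdc18 and without any gene of the chemokine and cytokine lists, giving 10 clusters. Ccl3, Ccl4 and Wfdc18 all stood highest in cluster 7, led by Rgs1, a regulator of chemokine-receptor signalling, with Mgst1, the antiproliferative Btg2 and the immediate early gene Fos. Cluster 7 held 780 cells of library 2 and 730 of library 1 and the shallowest cells, with a median of 2027 UMIs; 5 of 12 stem-like markers were at 2-fold or more there but none was among its top 10 genes, so it is not named. Although left out of the clustering, Wfdc18 and Ccl4 were among those top 10, as was Wfdc17, which was used in it. Its Ccl3 level was 45.7 (36.3 to 56.7) CPM in library 2 and 47.3 (36.9 to 59.6) in library 1. Ccl4 there was at 71.8 (60.0 to 85.3) CPM in library 2 and 57.9 (46.4 to 71.5) CPM in library 1, Wfdc18 at 49.0 (39.3 to 60.4) and 60.6 (48.8 to 74.4), and Wfdc17 at 730 and 839. Of the 129 Ccl4 UMIs of cluster 7 in library 2, 16 came from 1 cell. In library 2 the cluster's 17.1% of cells carried 28.2% of Ccl3 UMIs and 30.2% of Wfdc18 UMIs, and in library 1 its 22.4% of cells carried 34.0% and 41.4%. The interferon-induced genes Irf7 and Oasl2 were also in its top 10. With coarser clustering (resolution 0.5) the contrast was smaller: Ccl3 in its highest cluster over all other cells was at 2.08 in library 2 and 1.75 in library 1, against 3.70 and 2.95 here. The part of the low depth of cluster 7 in these levels was not tested.

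Cluster 1, lymphoid-primed-like by Ly6d, Il7r, Blnk and Dntt among its top genes, came next for Ccl3, at 25.1 (18.4 to 33.4) CPM in library 2 and 33.5 (22.8 to 47.6) CPM in library 1, together with cluster 2, led by Hist1h2bc, at 29.2 (16.7 to 47.4) and 27.3 (19.4 to 37.3). The lowest of the large clusters was cluster 3, led by Csf1r, Hp and Ctsg, with Ccl3 at 6.30 (3.02 to 11.6) CPM in library 2 and 8.15 (3.91 to 14.99) CPM in library 1; its intervals overlapped those of the S-phase cluster 6, led by Hist1h1b and Tk1, at 9.11 and 9.08 CPM. Ccl4 followed the same order at both ends, with 6.93 and 10.6 CPM in cluster 3. The Ccl3 interval of cluster 7 overlapped that of cluster 2 in both libraries and that of cluster 1 in library 1. Overlap of separate intervals does not by itself place a difference within counting error. Il12a was at 164.9 (147.1 to 184.4) CPM in library 2 and 199.0 (171.2 to 229.9) CPM in library 1 in cluster 1 and 174.8 (156.0 to 195.3) and 185.8 (164.6 to 208.9) in cluster 7, against 37.8 and 48.9 CPM in cluster 3.

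Shares of cells at 2000 UMIs come only from cells at least that deep, which are 474 of 780 in library 2 and 319 of 730 in library 1 for cluster 7, and 251 of 258 and 251 of 263 for cluster 3. Among these a Ccl3 UMI was found in 6.75% (4.66 to 9.40) of cells of cluster 7 in library 2 and 5.64% (3.38 to 8.77) in library 1. In cluster 3 it was found in 2.39% (0.88 to 5.13) and 1.59% (0.44 to 4.03). The intervals overlapped in both libraries, which does not by itself place the difference within counting error. No cell type here is known to lack these transcripts, so the part of free RNA in single UMIs was not measured. The barcodes removed for few genes or for mitochondrial UMIs held Ccl3 at 98.8 CPM and Ccl4 at 217.4 CPM, against 20.7 and 26.7 CPM in the kept cells of library 1. The nearest are the 16 cells of cluster 10, led by the neutrophil granule genes Elane, S100a8 and S100a9 and with a median of 8044 UMIs, where Ccl3, Ccl4 and Wfdc18 had 0 UMIs, which allows up to 32.0 CPM in the 10 cells of library 2 and 60.4 CPM in the 6 cells of library 1. The ratio of Il12a to Wfdc17 UMIs was 0.86 in library 2 and 0.73 in library 1 in cluster 1 but 0.24 and 0.22 in cluster 7. For Ccl3 to Wfdc17 UMIs the ratio was 0.13 in library 2 and 0.12 in library 1 in cluster 1. It was 0.055 and 0.053 in cluster 6 and 0.063 and 0.056 in cluster 7. What these ratios owe to free RNA was not tested. Within cluster 7 the libraries lay close, with a log2 ratio of -0.05 (-0.53 to 0.43) for Ccl3, 0.31 (-0.09 to 0.72) for Ccl4, -0.09 (-0.33 to 0.15) for Il12a and -0.31 (-0.75 to 0.13) for Wfdc18. The Ccl4 value includes the 1 cell of library 2 with 16 Ccl4 UMIs. Among the 7 large clusters, the interval left out 0 for Ccl3 in cluster 4, at -0.92 (-1.76 to -0.01), for Ccl4 in cluster 6, at -0.78 (-1.39 to -0.15), and for Wfdc18 in cluster 1, at -0.92 (-1.71 to -0.12), and cluster 3, at -1.83 (-3.94 to -0.08) on 4 UMIs in library 2 and 11 UMIs in library 1.

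**Figure D3:**
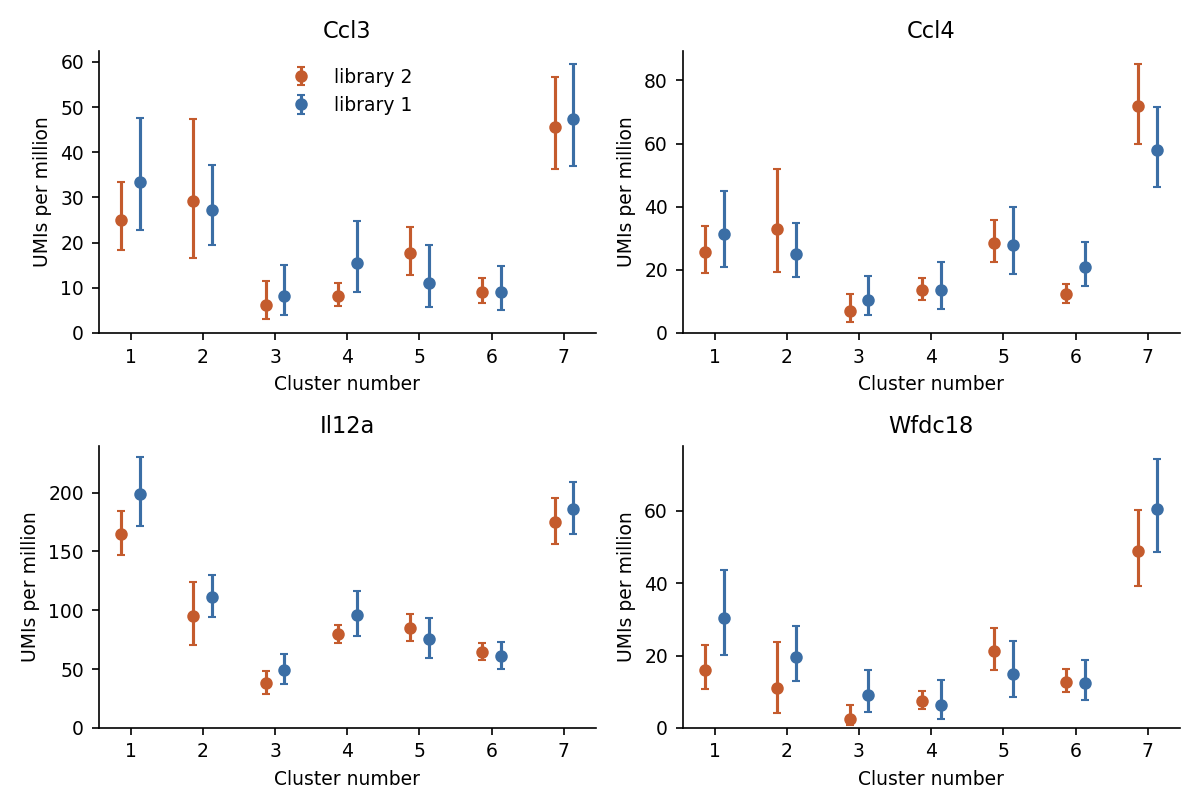
Level of Ccl3, Ccl4, Il12a and Wfdc18 (UMIs per 1000000) in the 7 clusters with at least 200 cells in each library, for library 2 and library 1, with exact 95% counting intervals. Cluster 7 is highest for Ccl3, Ccl4 and Wfdc18, with Ccl3 intervals that overlap those of cluster 2 in both libraries, and cluster 3 is lowest for Ccl3, Ccl4 and Il12a.

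The state of positive cells was read at 2000 UMIs per cell from summed gene lists that leave out the 5 members. Before thinning, Ccl3-positive cells had a median of 3617 UMIs and Ccl3-negative cells 3846 in library 2, and 2484.5 and 2847 in library 1. Cells with Ccl3 had less of the 24-gene G2 and mitosis list, at 17.8 UMIs per 10000 in positive cells and 26.6 in negative cells of library 2, a ratio of 0.67 (0.61 to 0.74), and at 14.2 and 17.6 in library 1, a ratio of 0.81 (0.71 to 0.91). The mitotic survivin gene Birc5, for one, had ratios of 0.63 in library 2 and 0.81 in library 1. With thinning to 3000 UMIs, which leaves out the shallower cells, the ratios were 0.79 in library 2 and 1.01 in library 1, so in library 1 the difference was not seen at that depth, and with only cells of at least 1000 genes library 1 was at 0.958. Ccl4-positive cells stood at 0.62 in library 2 and 0.77 in library 1 and Wfdc18-positive cells at 0.57 and 0.62, while Il12a-positive cells were near their negative cells at 0.98 and 0.91. The S-phase list was closer to 1 for Ccl3, at 0.97 in library 2 and 0.89 in library 1.

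The NF-kB list, 21 pathway and target genes, had no shared direction in Ccl3-positive cells, at 1.16 (0.999 to 1.33) in library 2 and 0.89 (0.72 to 1.08) in library 1. Nfkbia stood at 1.41 (1.02 to 1.89) in library 2 and 0.70 (0.39 to 1.16) in library 1, and Sod2, the mitochondrial superoxide dismutase, at 0.99 and 0.76. The 19 immediate early genes were a little higher, at 1.19 (1.01 to 1.41) in library 2 and 1.35 (1.12 to 1.62) in library 1, with Fos at 1.63 (1.02 to 2.48) and 1.502 (0.89 to 2.38), while Myc was at 0.76 and 0.87. The interferon response list was at 1.09 in library 2 and 0.999 in library 1. Ifitm3 gave most of it, with 394 of 668 UMIs in positive cells of library 2 and 255 of 416 in library 1, at 0.99 and 0.92, while Isg15 was at 1.74 (1.22 to 2.43) and 1.49 (0.899 to 2.34) and Rtp4 at 1.58 (1.14 to 2.145) and 1.46 (0.93 to 2.18). At 3000 UMIs the list was at 0.909 in library 2 and 0.902 in library 1.

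By lineage, Ccl3-positive cells had more of the 13 lymphoid-primed markers, at 1.37 (1.25 to 1.496) in library 2 and 1.14 (1.004 to 1.29) in library 1, and less of the 8 granule genes, at 0.76 (0.67 to 0.86) and 0.75 (0.65 to 0.86). Among the granule genes, Mpo was at 0.59 in library 2 and 0.51 in library 1, and Ctsg at 0.58 and 0.45. Elane had 0 UMIs in the positive cells of both libraries. It was found in only 1.003% of Ccl3-negative cells of library 2 and 0.850% of library 1. With so few, the absence of Elane cannot tell the positive cells from the negative ones. Prtn3, the proteinase 3 gene, gave most of the list, with 247 of its 286 UMIs in positive cells of library 2 and 186 of 212 in library 1, and was at 0.85 (0.745 to 0.963) and 0.84 (0.722 to 0.972). Il7r, the interleukin-7 receptor, was at 2.01 (0.90 to 3.93) in library 2 and 4.48 (1.94 to 9.16) in library 1, on 9 UMIs in the positive cells of each library. The better counted Dntt was at 1.49 (1.31 to 1.69) in library 2 and 1.07 (0.87 to 1.31) in library 1, the lymphoid transcription factor Mef2c at 1.45 (1.18 to 1.76) and 0.92 (0.67 to 1.25), and the cytokine receptor Flt3 at 1.20 (0.87 to 1.62) and 1.58 (1.09 to 2.22). In the few cells with 2 or more Ccl3 UMIs the lymphoid-primed list was at 0.880 in library 2 and 1.96 in library 1. The stem-like list lay on both sides of 1, at 0.93 in library 2 and 1.13 in library 1.

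Markers of the macrophage, neutrophil and dendritic lists were scarce in most Ccl3-positive cells, as in most Ccl3-negative cells. At least 5 UMIs of the macrophage list were found in 0 of 128 Ccl3-positive cells of library 2 and 0 of 91 of library 1, and 6 and 5 of its 8 genes were at 0. Only 2 of 3888 Ccl3-negative cells of library 2 and 1 of 2353 of library 1 reached 5 UMIs. This cutoff therefore cannot tell the positive cells from the negative ones. The neutrophil list gave 2 UMIs in library 2 and 1 in library 1. The dendritic list reached 5 UMIs in 1 of 128 positive and 49 of 3888 negative cells of library 2. In library 1 it did so in 4 of 91 positive and 54 of 2353 negative cells. Its summed level was 2.03 per 10000 in positive and 2.68 in negative cells of library 2, and 11.98 and 6.77 in library 1, where 1 positive cell held 73 of the 218 UMIs. The NK and T list, on 114 UMIs in library 2 and 60 UMIs in library 1 with 6 and 5 of 8 genes at 0, was at 1.38 and 1.06 times its level in negative cells. Nkg7 gave 101 of these UMIs in library 2 and 56 in library 1, at ratios of 1.26 and 1.01. It was also found in 42.5% and 41.4% of Ccl3-negative cells, so it does not mark NK or T cells here. In library 2 the list's 13 Ccl5 UMIs in positive cells came from 1 cell. The part of cells with other-type markers in the Ccl3 values was not tested.

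**Figure D4:**
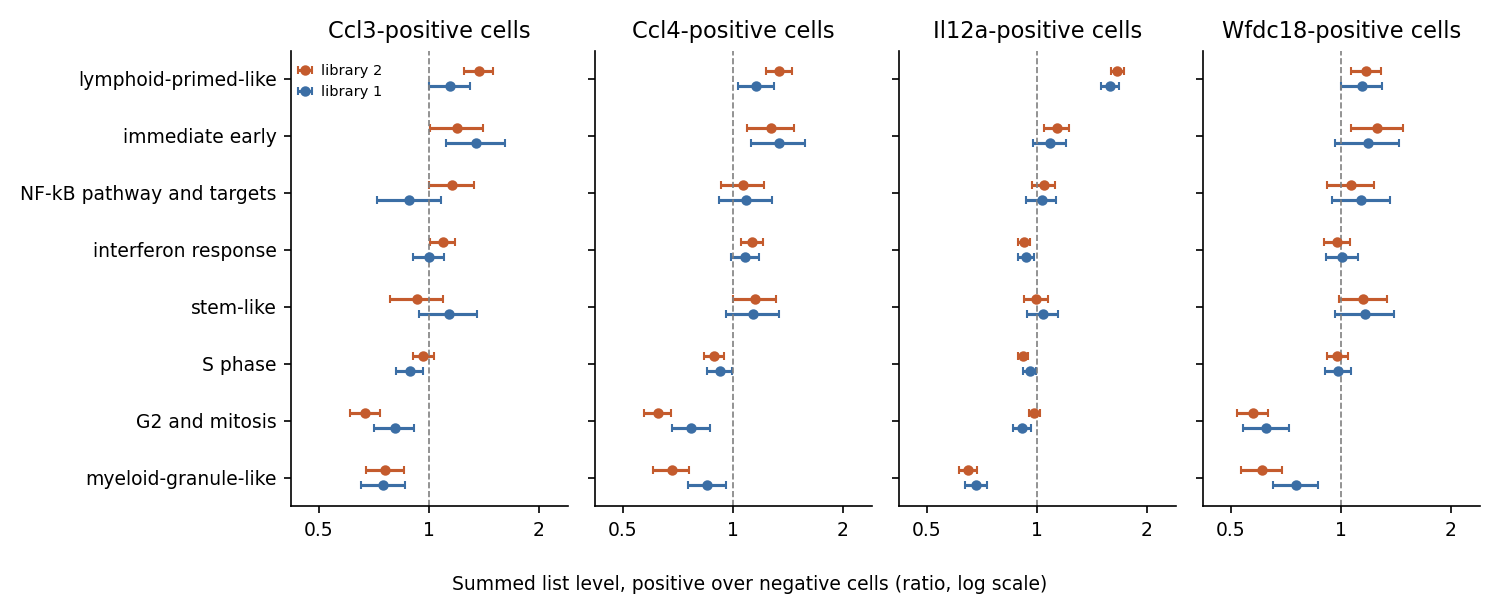
Summed level of 8 gene lists in cells positive for Ccl3, Ccl4, Il12a or Wfdc18 over cells negative for that gene (ratio, log scale), at 2000 UMIs per cell, in library 2 and library 1, with 95% counting intervals; the dashed line is 1. The granule list lies below 1 in all 8 comparisons and the NF-kB list for Ccl3 lies on both sides of 1, at 1.16 in library 2 and 0.89 in library 1.

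Il12a-positive cells had more lymphoid-primed and fewer granule transcripts. The lymphoid-primed list was at 1.66 (1.59 to 1.73) in library 2 and 1.59 (1.49 to 1.68) in library 1, and the granule list at 0.65 (0.61 to 0.68) and 0.68 (0.64 to 0.73). Dntt, the terminal deoxynucleotidyl transferase of early lymphocytes, had the largest fold of all genes compared by the smaller of its values in the 2 libraries, at 1215 CPM in Il12a-positive and 551 CPM in Il12a-negative cells of library 2 and 930 and 447 CPM in library 1. The share of cells with an Il12a UMI was 12.1% at 0 Dntt UMIs, 16.3% at 1 to 2 and 33.5% (30.03 to 37.1) at 3 or more in library 2, and 12.3%, 20.2% and 31.5% (26.7 to 36.7) in library 1. By the granule genes it was 27.7% at 0 UMIs, 17.5% at 1 to 2 and 11.96% at 3 or more in library 2, and 28.0%, 17.8% and 12.6% in library 1. For Ccl3 the share by Dntt was 2.41%, 3.76% and 4.86% in library 2 but 3.46%, 4.55% and 3.44% in library 1.

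**Figure D5:**
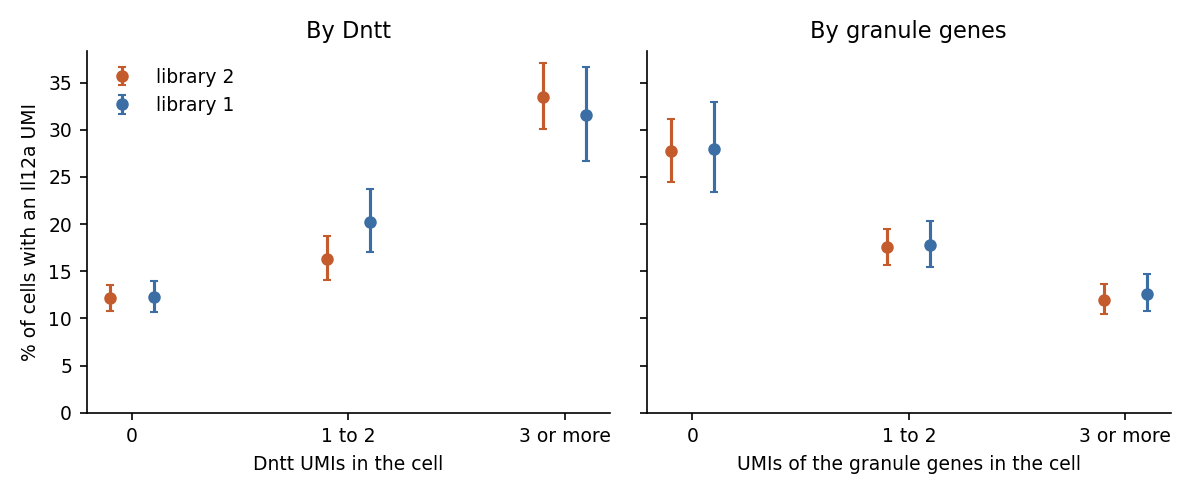
Share of cells with an Il12a UMI (%) by the number of Dntt UMIs (left) and of granule-gene UMIs (right) in the same cell, at 2000 UMIs per cell, in library 2 and library 1, with exact 95% binomial intervals. The share is 33.5% in library 2 and 31.5% in library 1 at 3 or more Dntt UMIs and 11.96% and 12.6% at 3 or more granule-gene UMIs.

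The genes most like each member were taken as those with the largest fold in positive over negative cells, by the smaller of the 2 libraries, counting only genes seen in 5% or more of the cells of both. For Ccl3, 15 of 3699 genes (0.406%) were at least 1.5-fold higher in both libraries and 89 (2.41%) at least 1.5-fold lower, with low counts behind most of them. The 12 highest were Samhd1, Hist1h2bc, Dhrs7, Irf2bp2, Wfdc17, Map4k4, Stat3, Stk38, Htatip2, Zfp36, Mynn and Smarca2. Samhd1, a dNTP-degrading enzyme that restricts viruses, was 1.91-fold in library 2 and 2.14-fold in library 1, Stat3, a cytokine-activated transcription factor, 1.90 and 1.59, and Zfp36, which destabilises cytokine mRNAs, 1.56 and 1.78, on 12 to 20 UMIs in the positive cells. Wfdc17 was the best counted, at 402 CPM in Ccl3-positive and 245 CPM in Ccl3-negative cells of library 2 and 489 and 300 CPM in library 1. The 5 lowest were S100a1, Tomm70a, Mettl16, Arcn1 and Hdac2, each on 4 or fewer UMIs in the positive cells of a library. Hist1h2bc, a histone gene that led cluster 2, was high with Ccl3, at 1.93 in library 2 and 1.82 in library 1, and among the 5 lowest with Wfdc18, at 0.27 and 0.39. These folds rest on 20 UMIs in library 2 and 14 in library 1 in Ccl3-positive cells. In Wfdc18-positive cells they rest on only 3 UMIs in each library.

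For Ccl4, 0.297% of genes were at least 1.5-fold higher in both libraries and 2.19% lower, and the leading genes included Wfdc17, at 1.80-fold in library 2 and 1.83-fold in library 1, the lymphocyte kinase Lck at 1.64 and 1.66, Btg2 at 2.24 and 1.497, and Il12a itself at 1.76 and 1.52. For Il12a these shares were 0.108% and 0.108%, and Dntt at 2.21 in library 2 and 2.08 in library 1 was followed by Cox6a2, Ttc13, Myl10, Btg2 and Lck, and the lowest were Ctsg, at 0.52 and 0.54, Hbb-bt and Mpo. For Wfdc18 the shares were 0.46% higher and 2.62% lower, and the leading genes included Vldlr at 2.22 in library 2 and 1.91 in library 1, Tnfrsf13b, which encodes the TACI receptor, at 2.11 and 1.77, Wfdc17 at 2.18 and 1.66, and the interleukin-1 receptor Il1r1 at 1.62 and 1.60. Wfdc17 was thus among the 12 highest for Ccl3, Ccl4 and Wfdc18. Its co-detection with Ccl3 was 1.27 (0.94 to 1.67) times expected in library 2 and 1.30 (0.94 to 1.76) in library 1. Within clusters it was 1.06 and 1.16 with Ccl3, 1.13 and 1.29 with Ccl4, and 1.31 and 1.48 with Wfdc18. Wfdc17 was itself used in the clustering.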

How the data were processed

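The authors deposited 1 matrix of UMI counts (27998 genes) for both libraries; per the submitters' processing notes, Cell Ranger 1.1 and mouse build mm10 were used, and other settings are not given in the sources used here. Barcodes with at least 500 genes and under 10% mitochondrial UMIs were kept, which removed 61. Per library, UMIs were added up and expressed as CPM, with exact Poisson, binomial and conditional ratio 95% intervals. For shares, pairs and states each cell was thinned to 2000 UMIs. Cells were clustered in scanpy 1.11.5 (2000 variable genes, 30 components, 15 neighbours, Leiden resolution 1.0) without the 5 members, the chemokine and cytokine lists, Spp1, sex-linked markers, and mitochondrial or ribosomal protein genes. Scrublet called 1 doublet in each library, too few to be of use, so none was removed and the 5% highest scores served as an alternative; edgeR 4.0.16 gave TMM factors. The members, lists and markers were chosen with earlier results of these data known. Named genes were the members, family genes with at least 50 UMIs, the most counted list genes and the 12 most like genes. Some other-type markers, such as Csf1r and Ccl5, are also expressed by progenitors or are family genes. The procedures were tested on simulated data.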

Additional observations from a re-analysis of the deposited data

Results flagged for a closer look

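The 61 barcodes that the cell filter removed, 2 of library 2 for mitochondrial UMIs and 59 of library 1 for few genes, lie outside the comparisons and still held member transcripts above the 3 counts that an empty result allows. They carried 5 UMIs of Ccl3, 11 of Ccl4 and 8 of Il12a among 50595 UMIs in all, which is 98.8 (32.1 to 230.6), 217.4 (108.5 to 389.0) and 158.1 (68.3 to 311.6) CPM. In kept cells of library 1, Ccl3 was at 20.7 CPM, Ccl4 at 26.7 and Il12a at 101.1. The Ccl4 UMIs were spread over 9 barcodes with at most 2 each. Keeping these barcodes moved the Ccl4 log2 ratio to -0.33.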

How the results depend on the processing

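No paired analysis was possible because each genotype has 1 library, and for the same reason there was no replicate to leave out. Of 410 alternative values of 64 results, 331 stayed within the counting error (or, for variance over mean, within 1.5 times), 74 moved beyond it and 5 changed direction. The causes were not tested.

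With cells of at least 1000 genes, the log2 ratio of library 2 over library 1 was -0.0514 for Ccl3, -0.108 for Wfdc18 and 0.0285 for Il12a, which reversed it. In thinned cells it was -0.0446 for Ccl4, -0.0424 for Il12a and -0.13 for Wfdc18, and TMM scaling, which shifts all genes by 0.12, put Il12a at -0.28.

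Shares of cells depend on depth by construction. Without thinning they were 5.45% in library 2 and 5.72% in library 1 for Ccl3, 7.33% and 7.13% for Ccl4, 28.3% and 25.3% for Il12a, and 5.75% and 5.87% for Wfdc18. At 1000 UMIs they were 2.06% in library 2 and 2.58% in library 1 for Ccl3, 2.68% and 2.96% for Ccl4, 9.93% and 11.1% for Il12a, and 1.78% and 2.24% for Wfdc18, and at 3000 UMIs Il12a was at 20.5% and 18.7%. Requiring 2 UMIs left 0.174% in library 2 and 0.368% in library 1 for Ccl3, 0.423% and 0.327% for Ccl4, 2.39% and 2.86% for Il12a, and 0.249% and 0.245% for Wfdc18. Without thinning the top 1% of cells of library 2 held 29.7% of Ccl4, 9.18% of Il12a and 25.4% of Wfdc18 UMIs.

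The highest cluster over other cells, at resolution 0.5, was at 2.08 in library 2 and 1.75 in library 1 for Ccl3, 2.52 and 1.67 for Ccl4, and 2.60 and 1.90 for Wfdc18. Clustering with the members gave 2.98 in library 2 and 3.86 in library 1 for Il12a and, in library 2, 2.48 for Ccl4 and 2.25 for Wfdc18. The Ccl3 and Ccl4 pair at 3000 UMIs was at 1.67 in library 2.

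Among states of Ccl3-positive over negative cells, G2 and mitosis in library 1 was at 0.958 with at least 1000 genes. At 3000 UMIs it was at 0.785 in library 2 and 1.01 in library 1, the last reversed, and the interferon list of library 2 reversed to 0.909. Counting as positive the few cells with 2 or more Ccl3 UMIs gave 0.296 in library 2 and 0.695 in library 1 for G2 and mitosis, 1.48 and 0.521 for NF-kB, and 0.438 and 0.466 for granule genes. The lymphoid list was then at 0.880 in library 2, reversed, and 1.96 in library 1, and the interferon list of library 2 at 0.807, also reversed. Defining positive cells by Ccl4 put NF-kB in library 1 at 1.09.

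Leaving out barcodes found in both libraries, an alternative chosen after seeing the data as was the one without the 2 highest Cxcl10 cells, moved no recomputed result beyond counting error. Leaving out the top 1% of cells gave no value for Cxcl10. Leaving out the highest cell for each gene, also chosen after seeing the data, put the variance over mean of Ccl4 at 1.14 in library 2 and that of Cxcl10 at 1.61 in library 2 and 0.999 in library 1.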
